A study of Mus musculus with 9 samples.

Results

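The glycine receptor subunit genes Glra1, Glra2 and Glrb, the GABA-A receptor subunit genes Gabra2, Gabra3 and Gabrb1, and Gphn, which encodes the scaffold protein gephyrin, were followed across 9 mouse arrays. Every probe set that the platform annotation gave to 1 of these 7 symbols alone was taken, whatever its signal, which came to 19 of the 45037 probe sets that are not controls. Each sample was hybridised to an Affymetrix mouse array, on which a probe set is a group of short oligonucleotides read together as 1 signal intensity, and a gene can have several. There were 3 groups of 3 arrays: whole spinal cord of wild-type mice, laser-captured motor neurons of wild-type mice, and laser-captured motor neurons of SOD1 mutant mice. Laser capture lifts chosen cells from a tissue section under a microscope, and SOD1 encodes a superoxide dismutase whose mutations cause an inherited form of the motor neuron disease ALS.

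The labels name no SOD1 allele, promoter, strain, age or treatment, do not explain the code D28 that all titles carry, and do not say how the neurons were recognised or whether any arrays share an animal. The p-values below therefore measure the spread between these arrays, part of which may be technical. The tissue arrays are described as total cord, but the source field of all 9 arrays reads ventral spinal cord. With 3 arrays in a group, precision is limited.

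Glycine receptors and GABA-A receptors are chloride channels built of 5 subunits each, opened by glycine or GABA, and together they carry the fast inhibition that motor neurons receive from Renshaw cells and other spinal interneurons. In the glycine receptor the alpha subunits (Glra1, mainly adult, and Glra2, mainly fetal) hold most of the ligand-binding site, and the beta subunit (Glrb) ties the receptor to gephyrin. In the GABA-A receptor the alpha (Gabra2, Gabra3) and beta (Gabrb1) subunits form the GABA-binding site between them, and the alpha subunit decides much of the receptor's pharmacology. Gephyrin forms the lattice that holds both kinds of receptor under the nerve ending, and it also catalyses the last steps of molybdenum cofactor synthesis.

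The sequences before the gene starts are shown for Glrb and Gphn, which link the receptor to the lattice, and for Glra2 and Gabra3, the members whose tested probe sets all fell in captured neurons. Each line holds the 250 bases before the most upstream start that RefSeq gives for the gene (GRCm38.p6), 5′ to 3′ on the gene's own strand, with every CG dinucleotide in capitals. The windows are chr3:80913661-80913910, minus strand (Glrb), chr12:78226405-78226654, plus strand (Gphn), chrX:165327394-165327643, minus strand (Glra2), and chrX:72656920-72657169, minus strand (Gabra3).
Glrb: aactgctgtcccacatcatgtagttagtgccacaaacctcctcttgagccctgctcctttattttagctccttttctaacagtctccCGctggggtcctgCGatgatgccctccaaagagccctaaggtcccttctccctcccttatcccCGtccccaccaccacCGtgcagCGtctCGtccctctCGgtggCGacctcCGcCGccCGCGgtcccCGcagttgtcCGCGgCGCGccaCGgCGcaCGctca
Gphn: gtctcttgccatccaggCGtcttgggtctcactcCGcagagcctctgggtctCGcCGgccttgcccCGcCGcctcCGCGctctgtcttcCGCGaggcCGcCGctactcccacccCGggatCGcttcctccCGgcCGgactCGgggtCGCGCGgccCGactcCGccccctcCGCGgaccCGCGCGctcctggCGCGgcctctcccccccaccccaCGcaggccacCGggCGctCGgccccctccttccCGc
Glra2: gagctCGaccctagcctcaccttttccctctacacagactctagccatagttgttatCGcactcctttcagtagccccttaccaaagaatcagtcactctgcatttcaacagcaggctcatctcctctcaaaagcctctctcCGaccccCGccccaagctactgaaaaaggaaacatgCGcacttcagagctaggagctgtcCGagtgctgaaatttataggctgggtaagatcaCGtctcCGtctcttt
Gabra3: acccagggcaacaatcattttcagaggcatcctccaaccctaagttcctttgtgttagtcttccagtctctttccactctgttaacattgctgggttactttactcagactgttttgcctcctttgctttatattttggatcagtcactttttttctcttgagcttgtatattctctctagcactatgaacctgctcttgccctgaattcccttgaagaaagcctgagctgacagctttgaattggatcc
Gphn had 34 CG in this window, Glrb 20, Glra2 8 and Gabra3 0. Across 32851 promoter windows of the same length the median was 6 (quartiles 2 and 16). The letters GGGCGG, searched on both strands and holding a CG themselves, occurred once each in Glrb, Gphn and Glra2 and in 32.7% of all windows. The letters TATAAA, searched on both strands, occurred once each in Glra2 and Gabra3 and in 12.4% of all windows. Gabra2 had 18 CG. The gene Gabrb1 has separate annotated starts, with 18 CG before the upstream one and 6 before the other. The promoter table held no entry for Glra1. These matches describe the letters only, and the arrays do not measure anything at these windows.

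The captured arrays were richer than cord in motor neuron transcripts and poorer in those of other cells, but not free of them. Of 10 tested motor neuron markers, 8 were higher in wild-type motor neurons than in cord and none lower. Over all 27022 tested probe sets, 24.0% were higher and 41.5% lower in that comparison. None of the tested markers of inhibitory interneurons, excitatory and dorsal horn neurons, astrocytes, oligodendrocytes, microglia and vessels was higher, and 9 of 9, 6 of 7, 9 of 10, 10 of 10, 9 of 9 and 8 of 8 were lower in that order. Tac2, Ebf2, Gjb1, Aif1, C1qc and Igf2 had no wild-type motor neuron array above background. For the interneuron list the summed signal ranged from 111431 to 118533 over cord arrays, from 30342 to 32636 over those of wild-type motor neurons and from 29936 to 49210 over those of mutant ones. Glial signal remained. The oligodendrocyte and myelin list summed to 733513 to 859411 over cord arrays and 287784 to 312434 over those of wild-type motor neurons. On the latter the motor neuron list summed to 285183 to 298164. Astrocyte sums were 306637 to 328073 in cord and 91628 to 105429 in wild-type motor neurons. The part of these other cells in the results below was not tested. The median array signal was 556 to 582 in cord and 269 to 366 on captured arrays, at a trimmed mean of 2500 on every array. In comparisons with whole cord, a smaller share of expressing cells and less RNA per cell cannot be told apart.

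**Figure D1:**
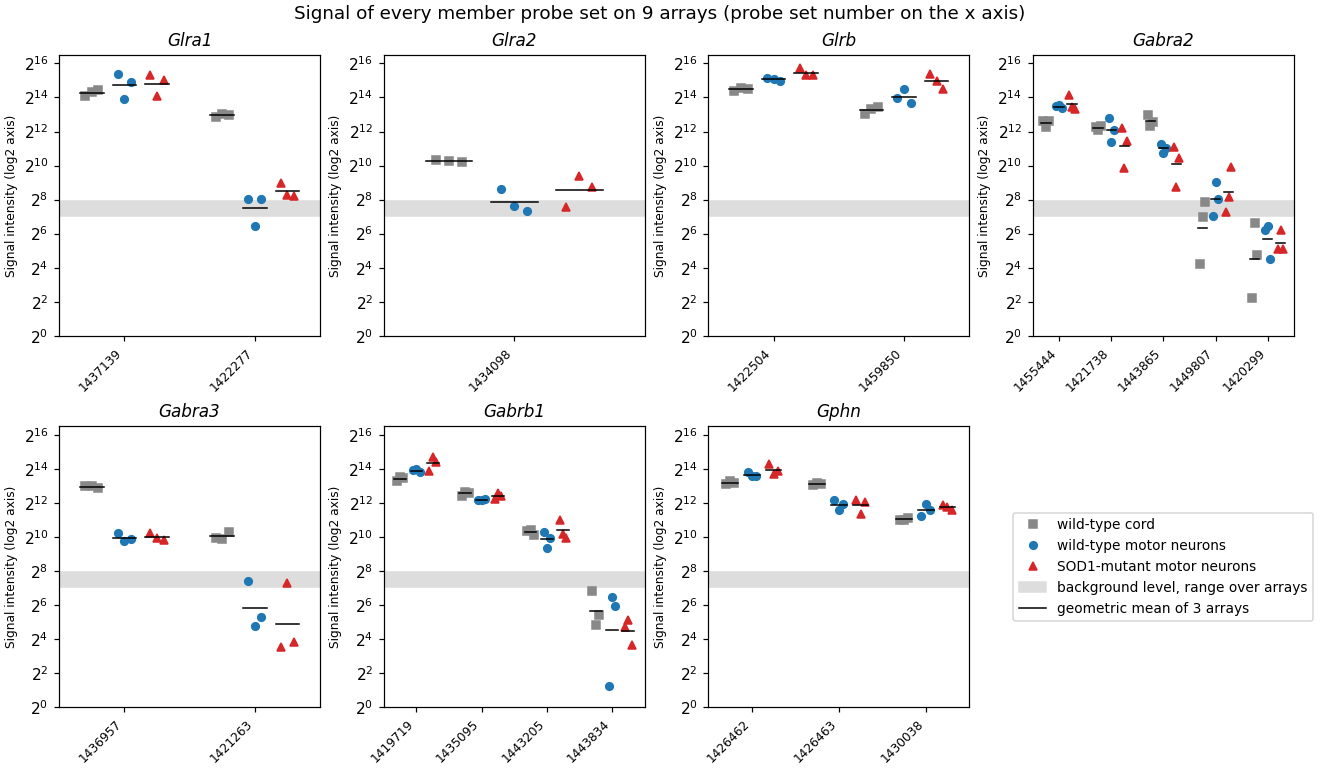
Signal intensity (log2 axis) of all 19 probe sets of the 7 genes, labelled by probe set number, on the 3 arrays of each group, with the geometric mean as a bar and the range of background levels over the 9 arrays shaded. Glra1 1422277, Glra2 1434098 and Gabra3 1436957 are lower on all 6 captured arrays than on any cord array, while Glrb 1422504 is higher on all 6.

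The first comparison, of wild-type motor neurons with wild-type cord, shows which of these inhibitory receptor transcripts were richer in captured neurons than in whole cord. Glrb rose on both its probe sets, Glra2 and Gabra3 fell, and Gabra2, Gabrb1 and Gphn each had probe sets that rose and others that fell. Glra1 fell steeply on 1 probe set and showed no called change on the other. Of 16 probe sets bright enough to be tested, 6 rose and 6 fell at an adjusted p of 0.05 (limma, Benjamini-Hochberg over 27022 probe sets). Of all 27022, 65.5% were called, 24.0% higher and 41.5% lower, so the members' total of 12 calls lies near that background. The median log2 change of the 16 was 0.16, against -0.35 over all tested probe sets.

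That median over all probe sets depends on the scaling: it was -0.35 with the authors' scaling, 0.13 after quantile normalization and 0.38 after centring each array on its median. The same call was made in all 3 scalings for 5 probe sets that rose, 5 that fell and 2 without a call, and the other 4 are given below. All 12 called probe sets had no overlap between the 2 groups of arrays, as had 71.9% of all tested probe sets.

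Among the glycine receptor subunits, the largest change was that of the Glra1 probe set 1422277_at. Glra1 encodes the adult ligand-binding subunit. This probe set gave signals of 7374, 8473 and 7905 on cord replicates 1, 2 and 3, then 266, 87.9 and 260 on wild-type motor neurons and 496, 315 and 297 on SOD1 mutant motor neurons. Every cord array lay far above every captured array, and 2 of the 3 wild-type motor neuron arrays were above background. The signal was 38.5-fold lower in wild-type motor neurons (log2 change -5.27 ± 0.36, SE, adjusted p = 3.38e-06).

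The brighter Glra1 probe set, 1437139_at, did not follow. Its signals were 17695, 20259 and 22115 on cord arrays, 42757, 15422 and 31105 on wild-type and 40194, 17485 and 33028 on mutant motor neuron arrays. In each captured group 2 arrays lay above all cord arrays and replicate 2 lay below them, so the groups overlapped. The log2 change in wild-type motor neurons was 0.46 ± 0.31 (SE, adjusted p = 0.226). It passed after centring (1.18, adjusted p = 0.00797) and without wild-type motor neuron replicate 2 (0.87, adjusted p = 0.000890), but not after quantile normalization (0.10, adjusted p = 0.785).

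Glra2, the subunit mainly of fetal receptors, had a single probe set (1434098_at). It gave 1285, 1236 and 1195 on cord arrays, 397, 194 and 164 on wild-type and 191, 663 and 434 on mutant motor neuron arrays, above background on all 9 arrays. The captured arrays all lay below the cord arrays and varied more among themselves. The fall in wild-type motor neurons was 4.95-fold (log2 change -2.31 ± 0.34, SE, adjusted p = 0.000364).

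Glrb, the subunit that binds gephyrin, moved the other way. Its probe set 1422504_at gave 21619, 24279 and 22915 on cord arrays, 36005, 34892 and 32436 on wild-type and 54336, 41492 and 40893 on mutant motor neuron arrays. The 3 groups formed 3 separate ranges. In wild-type motor neurons it was 1.50-fold higher (log2 change 0.59 ± 0.08, SE, adjusted p = 0.000198), a call lost after quantile normalization (0.17, adjusted p = 0.0883).

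The other Glrb probe set, 1459850_x_at, gave 8191, 10097 and 11204 on cord arrays, 16214, 22839 and 13272 on wild-type and 42203, 32684 and 23127 on mutant motor neuron arrays. These were again 3 ranges without overlap. The rise in wild-type motor neurons was 1.74-fold (log2 change 0.80 ± 0.20, SE, adjusted p = 0.00608) and passed in all 3 scalings. The suffix _x_at marks probe sets with some oligonucleotides that can also match other transcripts.

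Among the GABA-A receptor subunits, Gabra3 fell most. Its probe set 1436957_at gave 8013, 8323 and 7471 on cord arrays, 1227, 857 and 941 on wild-type and 1189, 964 and 907 on mutant motor neuron arrays. Both captured groups lay in the same narrow range, well under the cord arrays. The fall in wild-type motor neurons was 7.82-fold (log2 change -2.97 ± 0.16, SE, adjusted p = 9.00e-07).

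The dimmer Gabra3 probe set, 1421263_at, was too dim on average to be tested. It gave 968, 935 and 1266 on cord arrays, 169, 27.0 and 39.0 on wild-type and 11.4, 157 and 14.2 on mutant motor neuron arrays. Only 1 wild-type and none of the mutant motor neuron arrays was above background, and the signal was at least 5.54-fold lower in mutant motor neurons than in cord.

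Gabra2, a GABA-A subunit well known in spinal motor neurons, was read by 5 probe sets that did not move together. The brightest, 1455444_at, gave 6367, 4991 and 6286 on cord arrays, 11392, 11920 and 10726 on wild-type and 18468, 10943 and 10185 on mutant motor neuron arrays. All captured arrays were above all cord arrays, and the rise in wild-type motor neurons was 1.94-fold (log2 change 0.95 ± 0.12, SE, adjusted p = 0.000111).

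On the Gabra2 probe set 1443865_at the order was turned. It gave 7918, 5083 and 5927 on cord arrays, 2451, 1741 and 2135 on wild-type and 2213, 433 and 1392 on mutant motor neuron arrays, so that every captured array lay below every cord array. The signal was 2.95-fold lower in wild-type motor neurons (log2 change -1.56 ± 0.19, SE, adjusted p = 0.000112).

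The third bright Gabra2 probe set, 1421738_at, overlapped between the groups at 4826, 4366 and 5134 in cord, 7088, 2685 and 4396 in wild-type and 4718, 923 and 2766 in mutant motor neurons. Its log2 change in wild-type motor neurons was -0.12 ± 0.30 (SE, adjusted p = 0.732). The dim probe set 1449807_x_at was above background on 1 cord, 2 wild-type and 3 mutant motor neuron arrays. It changed by 1.35 ± 0.80 (SE, adjusted p = 0.166), and it passed when arrays were quantile-normalized (2.03, adjusted p = 0.0389) or centred (2.08, adjusted p = 0.0456). The remaining one, 1420299_at, was below background on all 9 arrays.

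Gabrb1, a beta subunit, rose on its brightest probe set. 1419719_at gave 9862, 11946 and 11349 on cord arrays, 15564, 16093 and 14346 on wild-type and 14825, 26547 and 21997 on mutant motor neuron arrays. No captured array reached down to the cord range, and the rise in wild-type motor neurons was 1.39-fold (log2 change 0.47 ± 0.10, SE, adjusted p = 0.00255).

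The Gabrb1 probe set 1435095_at was lower instead, at 5518, 6494 and 6242 in cord, 4545, 4703 and 4750 in wild-type and 4713, 6233 and 5379 in mutant motor neurons. Its log2 change in wild-type motor neurons was -0.38 ± 0.10 (SE, adjusted p = 0.0106). This sign did not hold across scalings: centring gave 0.35 (adjusted p = 0.0195), and quantile normalization -0.24 (adjusted p = 0.0815). The call was also lost without cord replicate 2 (-0.33, adjusted p = 0.0533) or cord replicate 3 (-0.36, adjusted p = 0.0535). Of the others, 1443205_at ranged from 664 to 1349 over cord and wild-type motor neurons with no call (-0.40 ± 0.25, SE, adjusted p = 0.187), except without wild-type motor neuron replicate 1 (adjusted p = 0.0389). 1443834_at was below background on all 9 arrays.

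Gphn, the scaffold gene, had 3 tested probe sets, of which 2 rose and 1 fell. The brightest, 1426462_at, gave 8962, 9950 and 9327 on cord arrays, 14313, 12065 and 12030 on wild-type and 19875, 13263 and 15339 on mutant motor neuron arrays. All captured arrays were above the cord arrays, and the rise in wild-type motor neurons was 1.36-fold (log2 change 0.44 ± 0.10, SE, adjusted p = 0.00405).

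The Gphn probe set 1426463_at was at much the same signal in cord, 8657, 9148 and 8783, but gave 4639, 3065 and 3934 in wild-type and 4540, 2622 and 4294 in mutant motor neurons. It was thus lower on every captured array, 2.31-fold in wild-type motor neurons (log2 change -1.21 ± 0.15, SE, adjusted p = 0.000117). The third, 1430038_at, gave 2030, 2042 and 2258 in cord, 2403, 3980 and 3116 in wild-type and 3838, 3528 and 3023 in mutant motor neurons. Its rise of 1.47-fold (log2 change 0.55 ± 0.19, SE, adjusted p = 0.0279) was lost when any of cord replicates 1, 2 and 3 or wild-type motor neuron replicates 2 and 3 was left out (0.37 to 0.60, adjusted p = 0.0523 to 0.0780).

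**Figure D2:**
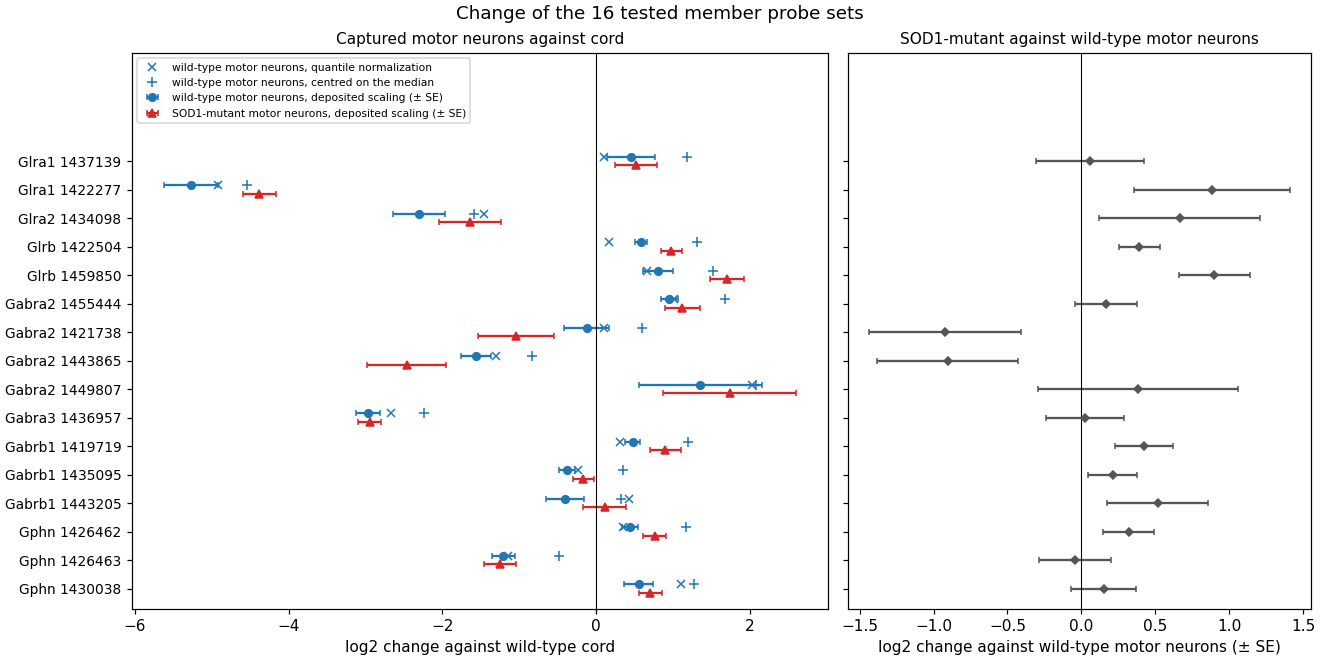
Log2 change (± SE) of the 16 tested probe sets: at left, captured motor neurons of each genotype against cord, with the wild-type values after quantile normalization and after centring as crosses; at right, SOD1 mutant against wild-type motor neurons. The changes against cord run from -5.27 to 1.74 with the authors' scaling, and those between the genotypes from -0.92 to 0.90.

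Probe sets of 1 gene differed in how they changed, so the difference between each probe set and the brightest of its gene was taken on every array and compared between the 6 captured and 3 cord arrays. In 5 of 9 such pairs the groups differed (exact permutation test, two-sided, p = 0.0238, adjusted p = 0.0429, where 0.0238 is the smallest value that this design can give). The brightest probe set was that of highest mean over all 3 groups, of which 2 are captured, so the sign of a shift depends on this choice. With the probe set brightest in cord as the reference, which changed it for Gabra2 alone, 6 of 9 pairs differed (exact permutation test, adjusted p = 0.0357) and the Gabra2 shifts were positive (1.43 to 3.56). Pairs of the same gene share a reference and are not independent. The share of differing pairs over all genes with several probe sets was not computed. These counts therefore cannot be read as particular to the members.

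For Glra1 the log2 difference of 1422277_at from 1437139_at was -1.48 to -1.26 in cord and -7.22 to -5.71 on captured arrays, a shift of -5.31. For Gphn, 1426463_at against 1426462_at went from -0.12 to -0.05 in cord down to -2.33 to -1.61, a shift of -1.83. These ranges stood well apart. For Gabra2 the shifts were -3.05 (1443865_at) and -1.62 (1421738_at), and for Gabrb1 -0.96 (1435095_at).

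In the remaining pairs no difference was called: Glrb shifted by 0.47 (exact p = 0.143, adjusted p = 0.184), Gabrb1 1443205_at by -0.83 (exact p = 0.119, adjusted p = 0.179), Gphn 1430038_at by 0.03 (exact p = 0.905, adjusted p = 0.905) and Gabra2 1449807_x_at by 0.51 (exact p = 0.548, adjusted p = 0.616). The Glrb and Gphn 1430038_at pairs passed after quantile normalization (0.74 and 0.69, exact permutation test, adjusted p = 0.0306).

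The captured arrays also had less signal from the 5′ part of control transcripts. For Gapdh, signal at the 3′ end over that at the 5′ end was, as log2, -0.28 ± 0.01 in cord, 4.03 ± 0.44 in wild-type and 4.49 ± 0.15 in mutant motor neurons. It was 0.66 ± 0.03, 4.53 ± 0.41 and 5.28 ± 0.59 for Actb (SD, n = 3). The files do not place the members' probe sets within their transcripts, and the part of this difference in the members' changes was not tested.

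**Figure D3:**
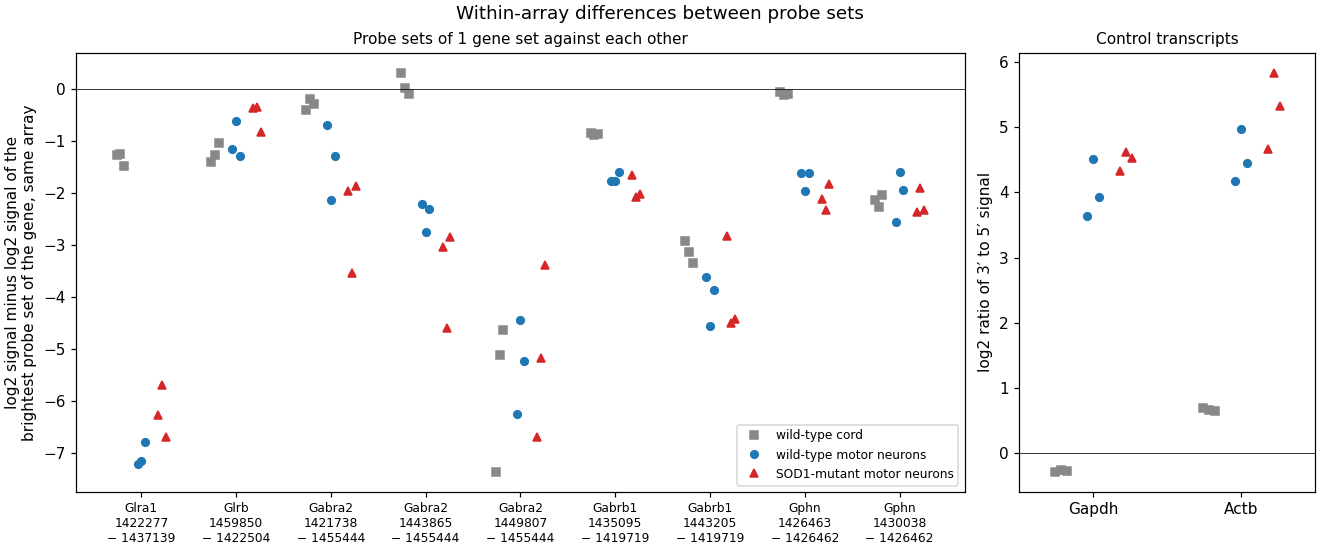
Left, log2 signal of each dimmer tested probe set minus that of the brightest of the same gene on the same array (9 pairs, 9 arrays). Right, 3′ over 5′ signal of the control transcripts Gapdh and Actb, as log2 ratios. Captured arrays lie below all cord arrays in 5 pairs and above them in both controls. Only shifts between groups can be read at left, not the distance of a pair from 0.

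The second comparison, of SOD1 mutant with wild-type motor neurons, asks whether these transcripts differed between the genotypes in captured cells. No member was called, and the clearest difference was a higher Glrb signal in the mutant. With limma 0 of 16 tested probe sets passed, against 0.222% of all 27022, and 2 had an unadjusted p under 0.05, which 15.2% of all had. Both were those of Glrb. The median log2 change of the 16 was 0.27, against -0.01 over all. With array weights, which weigh down arrays that vary more, 8 of the 16 were called, both Glrb probe sets among them, but so were 13777 of all 27022.

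On Glrb 1459850_x_at the mutant arrays, from 23127 to 42203, lay above the wild-type arrays, from 13272 to 22839. The difference was 1.86-fold (log2 change 0.90 ± 0.24, SE, unadjusted p = 0.00335, adjusted p = 0.138). On Glrb 1422504_at it was 1.31-fold (0.39 ± 0.14, SE, unadjusted p = 0.0172, adjusted p = 0.226), again with no overlap. The third probe set without overlap was Glra1 1422277_at (0.89 ± 0.53, SE, adjusted p = 0.453), on signals near background. That is 3 of 16, where 22.3% of all tested probe sets had no overlap.

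Summed marker signals of some other cells also differed between the genotypes, without a test of the sums. Of 10 tested astrocyte markers 1 was called higher in the mutant and none lower, with a median log2 change of 0.90 over the list. This was Gja1, a gap junction protein gene of astrocytes, 2.38-fold higher (1.25 ± 0.15, SE, adjusted p = 0.0170). Aqp4, the astrocyte water channel, was 2.29-fold higher without overlap but not called (1.20 ± 0.24, SE, adjusted p = 0.0884). Of all tested probe sets, 22.3% had no overlap. The summed astrocyte signal was 91628 to 105429 over wild-type and 122902 to 139025 over mutant motor neuron arrays. Summed signals of oligodendrocyte (287784 to 312434 against 345319 to 356142), microglia (3992 to 4354 against 5080 to 6357) and vascular markers (2113 to 2817 against 3006 to 3909) were likewise higher in the mutant without overlap. That of motor neuron markers was lower, at 261071 to 274764 against 285183 to 298164 in the wild type. For inhibitory interneuron markers the wild-type and mutant sums overlapped (30342 to 32636 against 29936 to 49210). So did those for excitatory and dorsal horn markers (9481 to 12092 against 10282 to 13042). Single markers did not all follow their sum: among microglia markers C1qa was higher in the mutant (2.82 ± 0.76, SE, adjusted p = 0.140). P2ry12 was lower (-0.84 ± 0.99, SE, adjusted p = 0.729), and neither was called (limma). The part of these shifts in the Glrb difference was not tested.

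Of the other genes, Gabra3 1436957_at had the smallest difference (0.02 ± 0.26, SE). Gabra2 1421738_at and 1443865_at had differences of -0.92 ± 0.52 and -0.91 ± 0.48 (SE, adjusted p = 0.422 and 0.393), with a wide spread: mutant replicate 2 was the lowest array of all 9 on both, at 923 and 433. Gphn 1426462_at differed by 0.32 ± 0.17 and Gabrb1 1419719_at by 0.42 ± 0.20 (SE, adjusted p = 0.400 and 0.340). Differences of these sizes cannot be resolved with this spread, and the missing calls do not show that the genotypes are alike.

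The third comparison, of SOD1 mutant motor neurons with wild-type cord, uses the same cord arrays as the first and is not independent of it. Of the 16 probe sets, 6 rose and 5 fell, where 62.1% of all were called, 21.9% higher and 40.2% lower. Glrb was 1.97-fold (log2 change 0.98 ± 0.13, SE, adjusted p = 0.000278) and 3.25-fold (1.70 ± 0.22, SE, adjusted p = 0.000211) higher on its 2 probe sets. Glra1 1422277_at was 20.9-fold lower (-4.38 ± 0.21, SE, adjusted p = 2.12e-06) and Gabra3 1436957_at 7.69-fold lower (-2.94 ± 0.15, SE, adjusted p = 2.25e-06).

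Gabra2 again split, with a rise of 1.12 ± 0.23 on 1455444_at (SE, adjusted p = 0.00267) and a fall of -2.47 ± 0.51 on 1443865_at (SE, adjusted p = 0.00303). Without mutant replicate 2 that fall was -1.81. Gphn split likewise, with changes of 0.76 ± 0.15 (1426462_at), 0.70 ± 0.15 (1430038_at) and -1.25 ± 0.20 (1426463_at), and the last was lost after centring (-0.50, adjusted p = 0.0728). Gabrb1 rose on 1419719_at (0.90 ± 0.20, SE, adjusted p = 0.00480) and was not called on 1435095_at (-0.17 ± 0.14, SE, adjusted p = 0.324), where centring gave 0.59 (adjusted p = 0.00604).

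Glra2 was 3.12-fold lower (-1.64 ± 0.41, SE, adjusted p = 0.00748), a call lost after quantile normalization (-0.72, adjusted p = 0.125) and after centring (-0.89, adjusted p = 0.0801). Glra1 1437139_at (0.52 ± 0.27, SE, adjusted p = 0.134) passed only after centring (1.27, adjusted p = 0.00421), with array weights (0.67, adjusted p = 0.000176) or without mutant replicate 2 (0.87, adjusted p = 0.000755). Gabra2 1421738_at (-1.05 ± 0.49, SE, adjusted p = 0.0961) passed without mutant replicate 1 (-1.56, adjusted p = 0.0115) or with array weights (-0.84, adjusted p = 0.000545). Gabra2 1449807_x_at changed by 1.74 ± 0.86 (SE, adjusted p = 0.112) and passed after quantile normalization (2.31, adjusted p = 0.0389), after centring (2.49, adjusted p = 0.0326) and with array weights (2.67, adjusted p = 0.00292). Gabrb1 1443205_at changed by 0.11 ± 0.28 (SE, adjusted p = 0.749) and passed with quantile normalization (0.92, adjusted p = 0.0152) and with centring (0.87, adjusted p = 0.0247). Array weights called 21449 of all 27022 probe sets in this comparison. Among the mutant arrays they put 4.33 on replicate 3, against 0.21 and 0.17 on replicates 1 and 2.

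Of the other subunits of these receptor families, Glra3, Gabra4 and Gabrb2 were lower in captured wild-type neurons on their brightest probe sets, Gabrg1 was higher and Gabra5 was not called. Glra3, a further glycine receptor alpha subunit, was the 1 tested gene of its list and fell 7.80-fold in wild-type motor neurons (log2 change -2.96 ± 0.66, SE, adjusted p = 0.00381), with 2 of 3 arrays above background. Of 3 tested genes for other GABA-A alpha and beta subunits, 2 fell and none rose. Gabra4 fell 4.48-fold (-2.16 ± 0.21, SE, adjusted p = 3.05e-05), on both its probe sets, though 1429330_at kept no call after quantile normalization (-0.42) or centring (-0.57). Gabrb2 fell 1.55-fold (-0.63 ± 0.10, SE, adjusted p = 0.000561), on 4 of its 5 probe sets, but after centring this fall was gone (0.10, adjusted p = 0.447), and all 4 calls with it. Gabra5 was higher after centring (0.58, adjusted p = 0.00578).

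Of 4 tested genes for gamma, delta, epsilon, theta, pi and rho subunits, 1 rose and none fell. This was Gabrg1, a gamma subunit gene, whose probe set 1460408_at gave 3568, 3723 and 3883 on cord arrays, 25277, 14367 and 17867 on wild-type and 14053, 8913 and 12451 on mutant motor neuron arrays. All captured arrays stood far above cord, and the mutant arrays lay below the wild-type ones. The rise in wild-type motor neurons was 4.99-fold (2.32 ± 0.18, SE, adjusted p = 8.19e-06), while its dimmer probe set 1427227_at fell 5.14-fold (-2.36 ± 0.50, SE, adjusted p = 0.00292).

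Gabrg1, Gabra2, Gabra4 and Gabrb1 are neighbours on chromosome 5, with Cox7b2 lying between Gabra2 and Gabra4. They did not change as a block. In wild-type motor neurons with the authors' scaling, Gabra4 was lower on both probe sets. The other genes of the cluster each had probe sets called in opposite directions. For Gabra2 and Gabrg1 this held in all 3 scalings. It did not for Gabrb1, whose 1435095_at was not called after quantile normalization (-0.24) and was higher after centring (0.35). Gabra4 1429330_at lost its call in both other scalings. On the X chromosome, Gabra3 lies between Gabre and Gabrq, with Magea10 between it and Gabre. Gabre was not called (0.56 ± 0.64, SE, adjusted p = 0.461), and Gabrq was too dim to be tested.

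Between the genotypes no tested probe set of these subunit genes was called. The lowest p was that of Gabrb2 1428203_at, at 3242, 2892 and 2760 in wild-type and 4484, 4782 and 4167 in mutant motor neurons, without overlap (0.59 ± 0.17, SE, unadjusted p = 0.00560, adjusted p = 0.158), while its brightest probe set, 1429685_at, differed by -0.04 ± 0.25. Next came Gabra4, at 425, 643 and 610 in wild-type and 1091, 943 and 1072 in mutant motor neurons on 1433707_at, without overlap (0.88 ± 0.29, SE, unadjusted p = 0.0106, adjusted p = 0.191). Gabrg1 1460408_at differed by -0.68 ± 0.23 (SE, unadjusted p = 0.0120, adjusted p = 0.199).

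**Figure D4:**
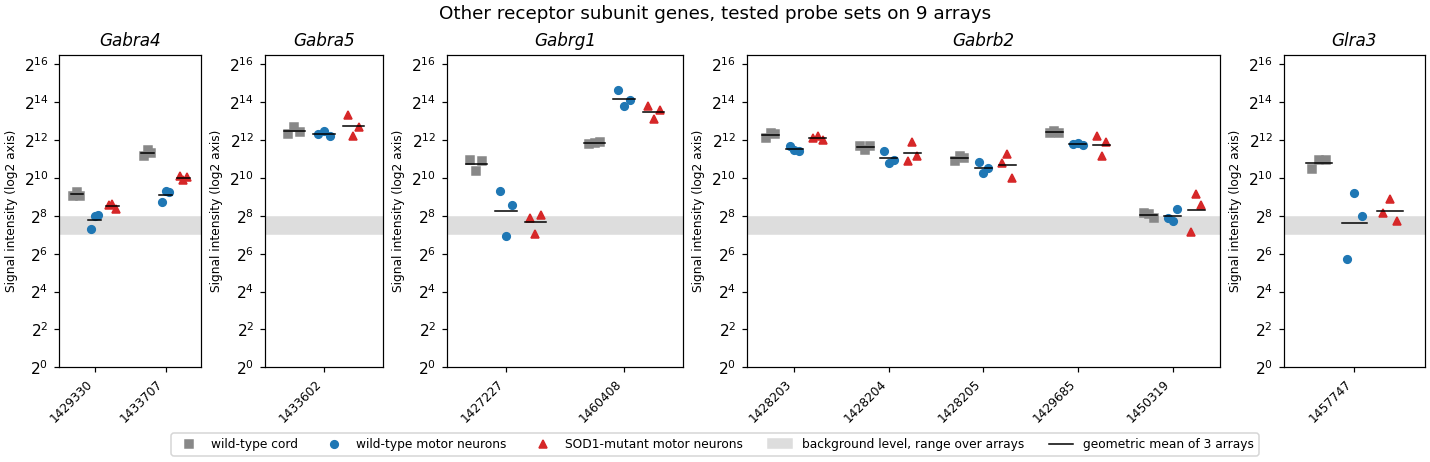
Signal intensity (log2 axis) of the tested probe sets of Gabra4, Gabra5, Gabrg1, Gabrb2 and Glra3 on the 3 arrays of each group, with geometric means as bars and the range of background levels shaded. Gabrg1 has 1 probe set above cord and 1 below it in captured neurons, while Gabra5 overlaps cord (log2 change -0.14 ± 0.13, SE, adjusted p = 0.360, and 0.58 after centring).

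Across the 8 lists of other inhibitory synapse genes, 48 of 65 genes were tested, and in wild-type motor neurons 20 were higher and 15 lower than in cord, with a median log2 change of 0.14. Of all 27022 tested probe sets, 24.0% were higher and 41.5% lower. The balance of the lists moved with the scaling, to 15 higher and 19 lower after quantile normalization and 28 and 8 after centring. Over all probe sets the counts were then 9647 higher and 7691 lower, and 11695 and 6248. Each gene stood by its brightest tested probe set. In mutant motor neurons 19 were higher and 16 lower than in cord (15 and 17 with quantile normalization, 32 and 10 with centring). With the authors' scaling 21.9% of all tested probe sets were higher and 40.2% lower there. Between the genotypes 0 of the 48 passed, against 0.222% of all tested probe sets.

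The list of scaffold and adhesion proteins of inhibitory synapses had 8 higher and 5 lower of 17 (7 and 8 after quantile normalization, 12 and 1 after centring). Nlgn2, the adhesion protein of inhibitory synapses that binds gephyrin, had cord signals of 7206, 7867 and 7713 and wild-type motor neuron signals of 31213, 31377 and 31336. The wild-type arrays nearly coincided, 4.12-fold above cord (2.04 ± 0.08, SE, adjusted p = 2.40e-07), on 1 of its 2 tested probe sets. Slitrk3, another such adhesion protein, was below background on all cord arrays and at least 2.88-fold higher (adjusted p = 0.0139), with 2 of 3 wild-type motor neuron arrays above background. Pfn1, an actin-binding protein that also binds gephyrin, was 4.34-fold lower (-2.12 ± 0.11, SE, adjusted p = 9.27e-07).

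Of 3 tested genes of molybdenum cofactor synthesis, the pathway in which gephyrin takes part, 1 rose and none fell with the authors' scaling. It was Mocs2, a molybdopterin synthase gene, 2.16-fold higher (1.11 ± 0.13, SE, adjusted p = 8.51e-05). In either other scaling 2 rose.

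Of 15 tested genes of GABA-A receptor trafficking, 7 rose and 5 fell (3 and 6 after quantile normalization, 9 and 3 after centring). The largest changes were falls. Plcl1, which binds GABA-A receptors and their phosphatases, fell 8.28-fold (-3.05 ± 0.15, SE, adjusted p = 6.17e-07). Trak2, a kinesin adaptor, fell 7.23-fold (-2.85 ± 0.39, SE, adjusted p = 0.000228). Hap1, an adaptor in receptor recycling, fell 2.31-fold (-1.21 ± 0.13, SE, adjusted p = 4.15e-05).

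Gabbr1, the 1 tested gene of the GABA-B receptors, rose 1.58-fold on its brightest probe set (0.66 ± 0.09, SE, adjusted p = 0.000193), but fell on 2 others, and quantile normalization took the call away (0.18). Of 4 chloride transporters and channels, 2 rose and 2 fell in all 3 scalings. Slc12a5, the transporter that keeps neuronal chloride low, had cord signals of 31307, 35911 and 34722 and wild-type motor neuron signals of 66690, 78851 and 79227. It was 2.20-fold higher (1.14 ± 0.09, SE, adjusted p = 9.19e-06), with its other tested probe set lower. Slc12a2, which carries chloride into cells, was 3.22-fold lower (-1.69 ± 0.08, SE, adjusted p = 6.30e-07), on all 3 probe sets. Clcn2, a chloride channel, was 3.15-fold lower (-1.66 ± 0.26, SE, adjusted p = 0.000522).

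For the brightest probe set of each member, the genes with the most similar log2 signal over the 9 arrays were found by Pearson's r, which here mainly follows the difference between captured and cord arrays. They were Abcd3 (r = 0.986) and Chst9 (0.983) for Glra1, Camk2a (0.990) and Slc27a2 (0.984) for Glra2, and Chm (0.985) and Dennd1b (0.984) for Glrb. For the GABA-A receptor subunits they were Zfp931 (0.989) and Gpatch2l (0.977) for Gabra2, Hoxd8 (0.998) and Apoe (0.998) for Gabra3, and Pink1 (0.983) and Cdc42 (0.979) for Gabrb1. For Gphn they were Vcpkmt and Dnm1l (both 0.988). The arrays fall into 2 clusters, so these values are descriptions only.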

How the data were processed

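The members, gene lists and tests were chosen with earlier results of these data known. The values were linear signal intensity per probe set, as deposited by the authors, scaled so that every array has a trimmed mean of 2500 (2% of probe sets taken off each end). The software behind them was not given in the sources used here. Groups came from the sample descriptions and replicate numbers from the titles.

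Before log2, 20.3 was added to every value as a pseudocount (the 10th percentile over all arrays), so changes of dim probe sets are understated. Control probe sets (64 of 45101) were left out. Tested probe sets (27022) had a mean of group means, taken on the log2 scale, above the 40th percentile. Each comparison was fitted on its 6 arrays with limma 3.58.1 in R 4.3.3 (lmFit, eBayes with an intensity trend), two-sided, Benjamini-Hochberg over all tested probe sets, threshold 0.05. Fold changes are 2 to the power of the log2 change. Background was the 95th percentile of 27 Bacillus subtilis control probe sets on the same array. Where a whole group was below it, the bright group's mean log2 value was set against the dim group's mean of the higher of background and signal, as "at least N-fold". The platform annotation gave 34945 probe sets 1 gene, 932 several and 9160 none.

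Every member probe set is named. From each other list up to 3 passing genes with the largest change are named, each by its tested probe set of highest mean, and for each member the 2 most alike genes. Gabra5, Gabre, Gabrq and the subunits described last were picked with their values in view. Pairs of probe sets were compared with exact permutation tests in scipy 1.17.1 (Python 3.11.15, figures with matplotlib 3.10.9). Promoters and gene order came from RefSeq tables of GRCm38.p6.

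On simulated arrays with 200 of 27022 probe sets changed, changes of 1 and 2 on the log2 scale were recovered in 34% and 67% of cases for wild-type motor neurons against cord, 13% and 50% between the genotypes, and 37% and 73% for mutant motor neurons against cord, with 2, 0 and 3 false calls. On the real arrays 65.5% and 62.1% of probe sets were called against cord, which makes the adjusted threshold less strict than in the simulation. The recoveries against cord therefore do not give the share of real changes found. Alternatives were quantile normalization, centring on the median of each array, other filters and pseudocounts, 1 fit of all 9 arrays, array weights, eBayes without the trend, blocks of replicate number, and each array left out in turn. Raising values to background, a filter on linear means and pairs taken against the probe set brightest in cord were added after the data were seen.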

Additional observations from a re-analysis of the deposited data

How the results depend on the processing

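The count of all probe sets called between mutant and wild-type motor neurons, 60, was the least stable: 32 after quantile normalization, 3 without the intensity trend, 1184 with all 9 arrays in 1 fit, 97 with values raised to background and 13777 with array weights, which put nearly all weight on replicate 3 of each group (10.8 and 5.47 against 0.28 to 0.43). Leaving out 1 array gave 6 to 71, with 11, 13 and 6 without wild-type motor neuron replicates 1, 2 and 3 and 7 without mutant replicate 3. With array weights 6 member probe sets were higher and 2 lower in the mutant. Array weights could not be fitted for wild-type motor neurons against cord.

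The shared replicate numbers were checked as a pairing: deviations of same-numbered arrays correlated at 0.15, 0.17 and 0.002 between the captured groups. Arrays of unlike number there correlated at -0.18 to 0.06. Between captured arrays and cord, same-numbered arrays correlated at -0.04 to 0.03. Captured replicates 1 and 2 thus correlated more with their own number, but replicate 3 did not, and the numbers were not taken to pair samples. With the replicate block, 443 probe sets were called between the genotypes, 1 of them a member (Glrb 1459850_x_at, 0.90, adjusted p = 0.0317). The block left the member counts against cord within 1.5 times of those reported. Against cord it added calls of Gabra2 1421738_at (-1.05, adjusted p = 0.0277) and 1449807_x_at (1.74, adjusted p = 0.0289) in mutant motor neurons.

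After centring, 10 member probe sets were higher and 3 lower in mutant motor neurons than in cord. The counts over all 27022 moved too, from 5925 higher and 10859 lower with the authors' scaling to 11236 and 5888. Gabrb1 1435095_at turned to 0.35 in wild-type and 0.59 in mutant motor neurons. Without any 1 array, 0 of the 9 probe set pairs passed (range 0 to 0), since the smallest p that fewer arrays allow is larger. In wild-type motor neurons against cord, member counts were 5 to 6 higher and 5 to 7 lower without 1 array. Over all tested probe sets they were 5851 to 6726 higher and 9626 to 11662 lower. Signals near background limit Glra1 1422277_at, Glra2, Gabra2 1449807_x_at and Gabra3 1421263_at.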

Other observations

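Some receptor subunits outside the 7 genes had patterns close to background, chosen here after their values were seen. Gabrr1, a rho subunit gene known from the retina, gave 35.0, 23.2 and 132 on cord arrays, 346, 207 and 143 on wild-type and 103, 39.2 and 11.2 on mutant motor neuron arrays. All 3 wild-type motor neuron arrays were above background and none of the others was, and it was too dim on average to be tested. Wild-type motor neurons were thus at least 1.43-fold above cord and at least 1.15-fold above mutant motor neurons.

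Gabrp, a pi subunit gene, gave 110, 232 and 240 on cord arrays, 115, 331 and 238 on wild-type and 406, 603 and 393 on mutant motor neuron arrays on 1424647_at. The mutant arrays lay above all others. It differed from wild-type motor neurons by 1.05 ± 0.47 on the log2 scale (SE, unadjusted p = 0.0488, adjusted p = 0.326) and was higher than in cord (1.23 ± 0.42, SE, adjusted p = 0.0321). Its other probe set, 1451424_at, was not called in either comparison (0.44 ± 0.55, adjusted p = 0.746, and 0.60 ± 0.51, adjusted p = 0.335).

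Gabrg3, a gamma subunit gene, had no wild-type motor neuron array above background on 1439717_at or 1445846_at, at least 3.83-fold and at least 4.49-fold lower than in cord. Both were too dim on average to be tested. The tested probe set, 1444549_at, had 2 of 3 wild-type motor neuron arrays above background. It was not called against cord (limma, -0.78 ± 0.41, SE, adjusted p = 0.125). On 1422187_at, also too dim to be tested, 1 cord, 1 wild-type and 1 mutant motor neuron array were above background.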
